A study of Drosophila melanogaster with 9 samples.

Results

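The genes described here encode the core of the cytoplasmic piRNA machinery of the Drosophila germline: aub, AGO3, vas, spn-E, krimp, tej, qin, tapas, vret and tud. They were taken as a fixed list of 10 genes by name, and the list was drawn up with earlier results of these data known. Of these, 9 were found by FlyBase identifier among the 13937 genes quantified in each library, and all 9 passed the filter on low counts, as did 9346 genes in total. The identifier of vas could not be matched, and vas was not analysed here.

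In the germ cells of the ovary, short PIWI-bound guide RNAs (piRNAs) direct the destruction of transposon transcripts in the nuage, an assembly of RNA and protein around the nucleus. Aubergine (Aub), loaded mainly with antisense piRNAs, cleaves transposon mRNA, and the cleavage product becomes a sense piRNA bound by Argonaute 3 (AGO3). AGO3 in turn cleaves cluster transcripts and so yields new antisense piRNAs for Aub, and this exchange is the ping-pong cycle. RNA helicases and Tudor-domain proteins, which bind methylated arginines of the PIWI proteins, hold the partners together. Piwi, the nuclear member of the family, and Heterochromatin Protein 1a (HP1a) act at the chromatin of transposons rather than in the nuage.

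The study profiled total RNA, depleted of rRNA, of ovaries dissected from females 0 to 1 days old that had been raised at 18 °C, and each of its 4 genotypes is represented by 2 biological replicates (8 libraries). All females were sisters from one cross, carried the transgene UAS-Dcr-2.D over + (Dicer-2, which strengthens RNAi) on a chromosome marked with w[1118], and had the driver GAL4-nos.NGT. This driver uses the nanos promoter, so that knockdown is limited to germ cells while follicle cells and other somatic cells keep both proteins (germline knockdown, GKD). The double-GKD females carried both hairpins, UAS-Piwi-RNAi (VDRC line 101658) on the second chromosome and UAS-HP1a-RNAi (VDRC line 31994) on the third. The labels give females labelled Piwi-GKD the Piwi hairpin and, on the third chromosome, +/TM3, and those labelled HP1a-GKD Cy opposite the driver with the HP1a hairpin over +, but the target transcripts below go against both. Ctrl females had Cy and +/TM3 without a hairpin. The balancers, as labelled, differ between the groups together with the hairpins, and the effects of a balancer and of a knockdown cannot be told apart. The members on the second chromosome are aub, krimp, tej, tapas and tud, and those on the third are AGO3, spn-E, qin and vret. Ovaries of many females were pooled for each library.

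Library totals ranged from 10773406 estimated counts (double-GKD replicate 1) to 12802084 (Ctrl replicate 2), at which 3 counts stand at 0.278 and 0.234 CPM (counts per 1000000). The members had 429 to 10806 counts per library, far above this floor, which covers counting error only. The messengers of both targets go against the labels of the single knockdowns. For piwi (FBgn0004872), 158 and 147 TPM (transcripts per 1000000) were measured in double-GKD libraries, 259 and 229 TPM in the libraries labelled Piwi-GKD and 129 and 134 TPM in those labelled HP1a-GKD, against 318 and 276 TPM in Ctrl. For the HP1a gene (FBgn0003607), the values were 161 and 172 TPM in double-GKD, 166 and 189 TPM in the libraries labelled Piwi-GKD and 342 and 358 TPM in those labelled HP1a-GKD, against 327 and 328 TPM in Ctrl. The HP1a transcript was therefore low where the label names Piwi, and piwi was lowest among the single knockdowns where the label names HP1a. In the libraries labelled Piwi-GKD, piwi was also lower than in Ctrl (log2 fold change -0.68, SE 0.08, adjusted p = 0.000228, edgeR quasi-likelihood test). The names of the deposited tables also give these groups the opposite genotype. In these data the libraries labelled Piwi-GKD are thus those with the lower HP1a transcript, and those labelled HP1a-GKD are those with the lower piwi transcript. The labels were kept as names throughout, and a change in a group should not be credited to the knockdown that its label names. The comparison of double-GKD with Ctrl and the interaction test would be the same if these names were exchanged.

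Levels between genes were compared as TPM, which divides reads by the effective length of the transcripts and sums to the same total in each library. In double-GKD ovaries the most abundant members were tud and spn-E, whose values overlapped, followed by aub, tapas, AGO3, vret, tej, krimp and qin, with vret and tej also overlapping. The order in Ctrl was aub, AGO3, tej, tud, spn-E, krimp, tapas, qin and vret. There, tej, tud and spn-E did not separate beyond the spread of their replicates, and neither did krimp from tapas nor tapas from qin. The means spanned 16.8 TPM (qin) to 112 TPM (tud) in double-GKD, and 38.3 TPM (vret) to 156 TPM (aub) in Ctrl. The transcripts of the PIWI proteins thus headed the list in Ctrl libraries, while the large scaffold tud and the helicase spn-E headed it in double-GKD libraries. The order began with tud, spn-E and aub in the libraries labelled Piwi-GKD, but with aub, AGO3 and tud in those labelled HP1a-GKD.

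**Figure D1:**
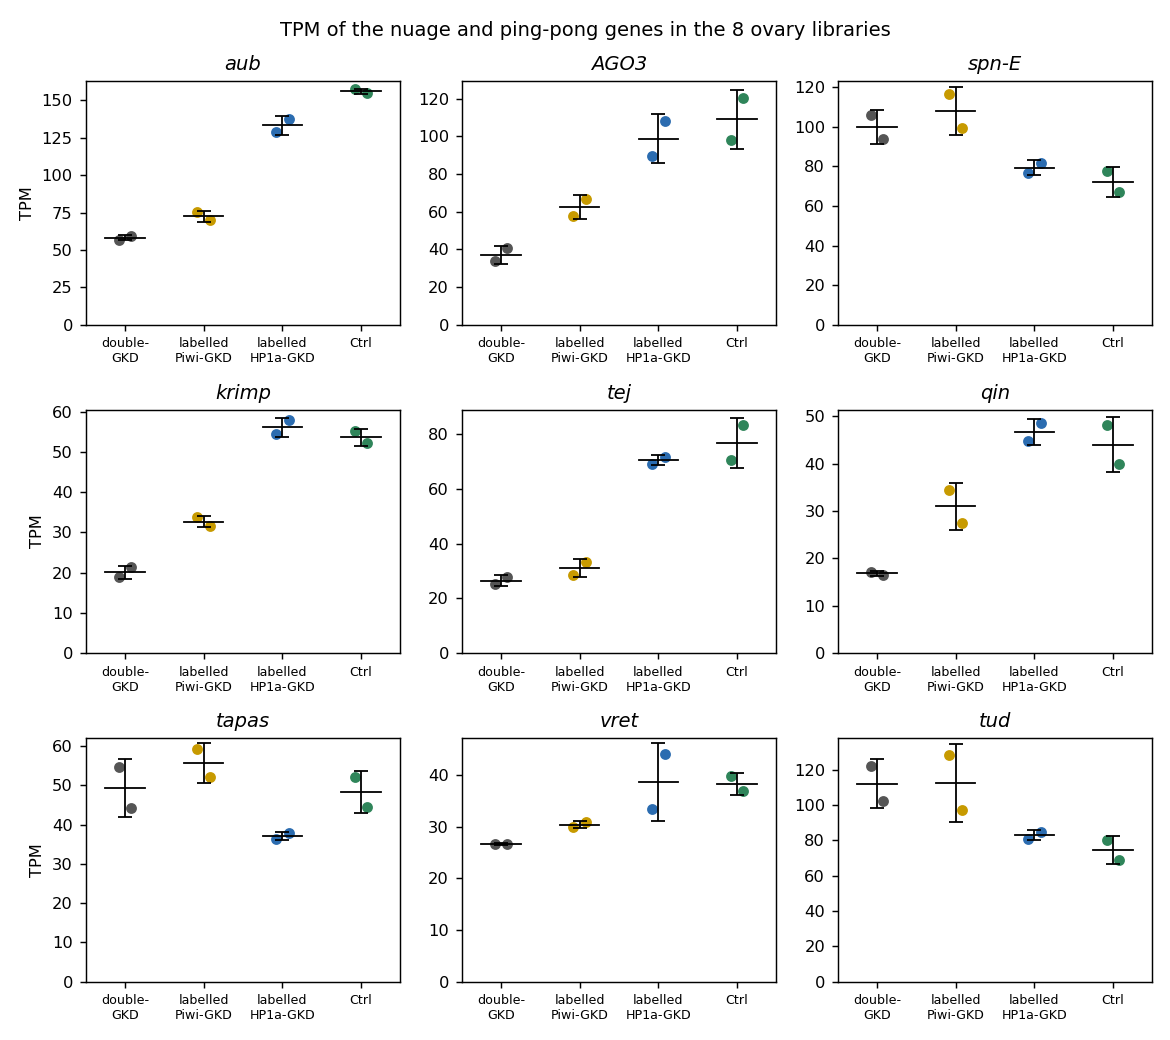
TPM of the 9 members in each of the 8 libraries, with 1 panel per gene, the groups side by side from double-GKD to Ctrl, points for libraries, horizontal lines for the means of 2 replicates and bars for the SD. For aub, AGO3, krimp, tej and qin the points of double-GKD lie far below those of Ctrl, as for aub with 57.0 and 59.3 against 157 and 155 TPM, while for spn-E and tud they lie above them.

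The first comparison asks how the nuage genes are expressed when both hairpins are present. Relative to Ctrl, 7 of the 9 members were lower in double-GKD ovaries and 1 was higher at an adjusted p under 0.05, where 28.1% of all tested genes were lower and 28.1% were higher. The fall was about 3- to 4-fold for aub, AGO3, krimp, tej and qin, smaller for vret and slight for tapas, whereas tud rose slightly and spn-E did not pass the test. In DESeq2, for which no share of all tested genes was computed, 7 members were called in either direction. DESeq2 did not call tapas (adjusted p = 0.117). The median log2 fold change of the 9 members was -1.70, beside 0.00 over all tested genes. In TPM, 6 members lay below Ctrl without overlap of the groups (22.8% of all tested genes), 2 above (53.6%) and tapas overlapped.

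Among the PIWI proteins, aub (FBgn0000146) had 57.0 and 59.3 TPM in double-GKD, 75.1 and 69.8 TPM in the libraries labelled Piwi-GKD and 129 and 138 TPM in those labelled HP1a-GKD, against 157 and 155 TPM in Ctrl. All double-GKD values were lower than any Ctrl value, and the mean in double-GKD was 58.2 ± 1.61 TPM, against 156 ± 1.72 TPM in Ctrl (SD, n = 2 each). The log2 fold change of aub in edgeR was -1.74 with a standard error (SE) of 0.11, a 3.34-fold fall (adjusted p = 2.3e-05, quasi-likelihood test with Benjamini-Hochberg adjustment, as for all adjusted p below). AGO3 (FBgn0250816), a gene embedded in heterochromatin near the centromere, had 33.8 and 40.6 TPM in double-GKD, 58.0 and 67.0 TPM in the libraries labelled Piwi-GKD and 89.6 and 108 TPM in those labelled HP1a-GKD, against 97.8 and 120 TPM in Ctrl. Its fall in double-GKD was 3.64-fold, with a log2 fold change of -1.86 (SE 0.22, adjusted p = 0.000368 in edgeR), the largest among the members by a narrow margin over tej. The 2 replicates of AGO3 differed more than those of aub in each genotype, and its SE was the widest of the 9 genes. Both partners of the ping-pong pair were thus lower in double-GKD than in Ctrl by a similar factor, and their levels in the libraries labelled HP1a-GKD lay close to Ctrl.

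The DExH-box helicase Spindle-E (spn-E, FBgn0003483), which is needed for ping-pong and for the assembly of the nuage, behaved differently. Its transcript was measured at 106 and 93.8 TPM in double-GKD, 117 and 99.3 TPM in the libraries labelled Piwi-GKD and 76.5 and 81.9 TPM in those labelled HP1a-GKD, against 77.7 and 66.9 TPM in Ctrl. Although every double-GKD value exceeded every Ctrl value in TPM, the log2 fold change of spn-E after scaling between libraries was 0.14 (SE 0.07, adjusted p = 0.136 in edgeR), and it was not called. TPM and edgeR differ in part because TPM has no scaling between libraries. The log2 ratio of mean TPM against Ctrl was above the edgeR value by a median of 0.32 for double-GKD over all tested genes. The shift reached 0.40 with the libraries labelled Piwi-GKD but 0.05 with those labelled HP1a-GKD. Relative to that shift, the TPM ratio of 1.38 for spn-E in double-GKD stands close to the bulk of genes.

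Among the Tudor-domain proteins, the steepest falls were those of tej, krimp and qin. Tejas (tej, FBgn0033921), which recruits Vasa and Spindle-E to the nuage, had 25.2 and 27.9 TPM in double-GKD, 28.7 and 33.4 TPM in the libraries labelled Piwi-GKD and 69.1 and 71.7 TPM in those labelled HP1a-GKD, against 70.4 and 83.2 TPM in Ctrl. The fall of tej in double-GKD was 3.63-fold (log2 fold change -1.86, SE 0.19, adjusted p = 0.000177 in edgeR). Krimper (krimp, FBgn0034098), which brings AGO3 and Aub together for ping-pong, had 19.0 and 21.3 TPM in double-GKD, 33.7 and 31.7 TPM in the libraries labelled Piwi-GKD and 54.4 and 57.8 TPM in those labelled HP1a-GKD, against 55.1 and 52.1 TPM in Ctrl. For krimp the log2 fold change in double-GKD was -1.73 (SE 0.11, adjusted p = 2.94e-05 in edgeR), a 3.31-fold fall. These genes had in common that their double-GKD libraries were the lowest of all genotypes and that the libraries labelled HP1a-GKD were near Ctrl, but the libraries labelled Piwi-GKD were close to double-GKD for tej and intermediate for krimp.

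Qin (FBgn0263974), a RING and Tudor-domain protein that keeps ping-pong between Aub and AGO3 rather than between Aub molecules, showed the same intermediate pattern. It had 17.2 and 16.4 TPM in double-GKD, 34.4 and 27.5 TPM in the libraries labelled Piwi-GKD and 44.8 and 48.5 TPM in those labelled HP1a-GKD, against 48.0 and 39.9 TPM in Ctrl. The double-GKD values of qin were the lowest of any member, and its fall relative to Ctrl was 3.26-fold (log2 fold change -1.70, SE 0.09, adjusted p = 1.78e-05 in edgeR). Vreteno (vret, FBgn0263143), which acts in piRNA biogenesis in germ cells and in follicle cells, had 26.7 and 26.6 TPM in double-GKD, 29.9 and 30.9 TPM in the libraries labelled Piwi-GKD and 33.4 and 44.0 TPM in those labelled HP1a-GKD, against 39.8 and 36.8 TPM in Ctrl. Its fall in double-GKD was 1.79-fold, with a log2 fold change of -0.84 (SE 0.14, adjusted p = 0.0018 in edgeR). The replicates of vret in the libraries labelled HP1a-GKD lay on both sides of those in Ctrl.

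The remaining members, tapas and tud, changed little. Tapas (FBgn0027529), a relative of Tejas that works with Qin, had 54.6 and 44.1 TPM in double-GKD, 59.3 and 52.1 TPM in the libraries labelled Piwi-GKD and 36.4 and 37.8 TPM in those labelled HP1a-GKD, against 52.1 and 44.4 TPM in Ctrl. The groups double-GKD and Ctrl overlapped in TPM, and the edgeR log2 fold change of tapas, -0.21 (SE 0.08, adjusted p = 0.0495), turned to 0.03 when limma was run on TPM. Tudor (tud, FBgn0003891), the founding member of the family, which gathers Aub in the pole plasm, had 122 and 102 TPM in double-GKD, 128 and 97.0 TPM in the libraries labelled Piwi-GKD and 80.9 and 85.0 TPM in those labelled HP1a-GKD, against 80.1 and 68.9 TPM in Ctrl. Its rise in double-GKD was 1.20-fold (log2 fold change 0.27, SE 0.09, adjusted p = 0.0425 in edgeR), and it was above Ctrl in both replicates. The calls of tapas and tud were close to the threshold, and each was lost when single libraries were left out. Where leaving out a library lost the call, the log2 fold change stayed at -0.28 to -0.16 for tapas and 0.22 to 0.30 for tud. Without any 1 of the 8 libraries the adjusted p of tapas was 0.0554 to 0.202, the highest without double-GKD replicate 2, and the adjusted p of tud was 0.0853 to 0.201 without any 1 library of double-GKD, of Ctrl or of those labelled HP1a-GKD. The calls of the other 6 lower members did not depend on any 1 library.

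**Figure D2:**
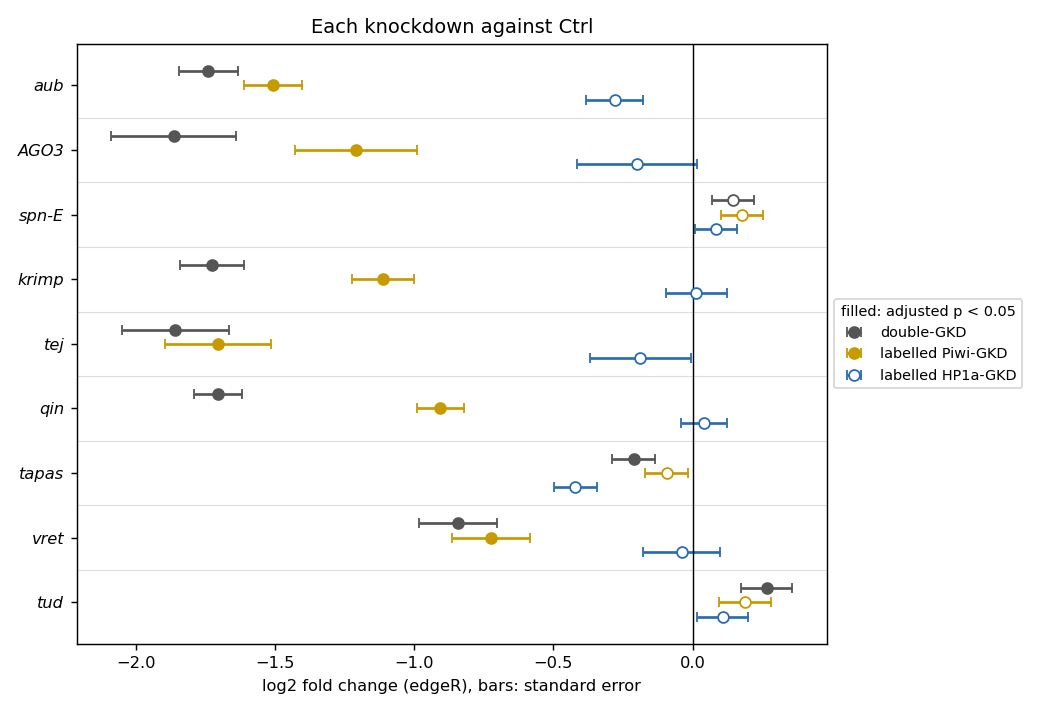
Log2 fold change of each member against Ctrl in edgeR (horizontal axis), for double-GKD, the libraries labelled Piwi-GKD and those labelled HP1a-GKD, with bars for the SE and filled symbols for an adjusted p under 0.05. Values of double-GKD reach -1.86 for AGO3 and tej, and those of the libraries labelled HP1a-GKD lie between -0.42 (tapas) and 0.11 (tud), with no filled symbol.

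The libraries labelled Piwi-GKD, in which the HP1a transcript was low, were compared with Ctrl next. Here 6 of the 9 members were lower, aub, AGO3, krimp, tej, qin and vret, where 29.1% of all tested genes were lower, and none was higher (29.3% of all tested genes), with spn-E also at an unadjusted p under 0.05 in edgeR. In DESeq2 the number called in either direction was 6. For counts at an unadjusted p or in DESeq2, here and below, no share of all tested genes was computed. The fall of tej was nearly as deep as in double-GKD, with a log2 fold change of -1.70 (SE 0.19, adjusted p = 0.000244 in edgeR), and that of aub was -1.51 (SE 0.10, adjusted p = 2.97e-05). For AGO3, krimp and qin it was shallower, at -1.21 (SE 0.22, adjusted p = 0.00254), -1.11 (SE 0.11, adjusted p = 0.000145) and -0.91 (SE 0.08, adjusted p = 9.99e-05). The log2 fold change of vret was -0.73 (SE 0.14, adjusted p = 0.00339), and this call was lost on the TPM scale, where the log2 difference was -0.32 (adjusted p = 0.0861 in limma). The members not called were spn-E with 0.18 (adjusted p = 0.0765), tud with 0.19 (adjusted p = 0.119) and tapas with -0.09 (adjusted p = 0.331). The median of the 9 members was -0.91, beside 0.00 for all tested genes. This comparison shares its Ctrl libraries with the others, so that the fold changes of the groups are not independent.

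In the libraries labelled HP1a-GKD, in which piwi was low and the HP1a transcript was not, no member was called in either direction by edgeR, where 1.37% of all tested genes were called. At an unadjusted p under 0.05 there were 2, aub with a log2 fold change of -0.28 (SE 0.10, adjusted p = 0.348) and tapas with -0.42 (SE 0.08, adjusted p = 0.0556), and DESeq2 called 1, tapas (adjusted p = 0.00987). Both genes lay below Ctrl in TPM without overlap (15.5% of all tested genes), while tud lay above it (22.6%), and the other 6 overlapped with Ctrl. The remaining log2 fold changes ran from -0.20 (AGO3) to 0.11 (tud), and the median over the 9 members was -0.04. For krimp and qin the fold changes were 0.01 and 0.04 with SEs of 0.11 and 0.08, so that falls of the size seen in double-GKD lie far outside these errors. Against these libraries directly, the libraries labelled Piwi-GKD had 6 members lower (27.8% of all tested genes), with log2 fold changes from -1.52 (tej) to -0.69 (vret), and 1 higher (27.4%), which was tapas with 0.33 (SE 0.08, adjusted p = 0.009 in edgeR). The call of tapas was lost without replicate 1 or replicate 2 of the libraries labelled HP1a-GKD (adjusted p = 0.067 and 0.0592).

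The double knockdown was then set against each single knockdown, to see which genes responded to the addition of the other hairpin. Relative to the libraries labelled HP1a-GKD, 6 members were lower in double-GKD, where 25.6% of all tested genes were lower, and none was higher (25.3%). At an unadjusted p under 0.05 tapas was also higher (log2 fold change 0.21, adjusted p = 0.0544), and DESeq2 called 6 members in either direction. The log2 fold changes were -1.74 for krimp and qin, -1.67 for tej, -1.66 for AGO3, -1.46 for aub and -0.80 for vret. These are the same 6 genes that were lower in the libraries labelled Piwi-GKD.

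Relative to the libraries labelled Piwi-GKD, qin alone among the members was lower in double-GKD, where 0.621% of all tested genes were lower, and none was higher (0.417%). The mean of qin was 16.8 ± 0.562 TPM in double-GKD, against 31.0 ± 4.90 TPM in the libraries labelled Piwi-GKD (SD, n = 2 each), and the log2 fold change was -0.80 (SE 0.08, adjusted p = 0.0128 in edgeR), a 1.74-fold fall. The call of qin was lost without either double-GKD library or either library labelled Piwi-GKD (adjusted p = 0.0534 to 0.101), although the log2 fold change then stayed between -0.85 and -0.74. The difference was -0.61 for krimp (SE 0.11, adjusted p = 0.0671) and -0.66 for AGO3 (SE 0.22, adjusted p = 0.302), and both were called by DESeq2 (adjusted p = 0.00213 and 0.0303). For aub, tej, vret, tapas, spn-E and tud the difference lay between -0.23 and 0.08, and none of the 6 was called. In TPM, 6 members lay below the libraries labelled Piwi-GKD without overlap, beside 28.5% of all tested genes.

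The interaction test asks whether a hairpin moves a gene differently with and without the other one. No member was called by edgeR, where 0.267% of all tested genes were. By criteria for which no such share was computed, 3 members had an unadjusted p under 0.05 in edgeR and 1 was called by DESeq2. The value furthest from 0 was that of qin, at -0.84 on the log2 scale (SE 0.12, adjusted p = 0.0616 in edgeR, and 8.78e-05 in DESeq2), a negative value standing for a fall in double-GKD deeper than the sum of the changes in the single knockdowns. The interaction of krimp was -0.63 (SE 0.16, adjusted p = 0.319), that of tapas 0.30 (SE 0.11, adjusted p = 0.536) and that of AGO3 -0.46 (SE 0.31, adjusted p = 0.79). For aub, tej, vret and tud the interaction was within 0.08 of 0, with SEs of 0.13 to 0.27, and it was -0.12 (SE 0.11) for spn-E. An adjusted p above the threshold does not show that these genes responded additively, and the SEs of tej and AGO3 were the widest.

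**Figure D3:**
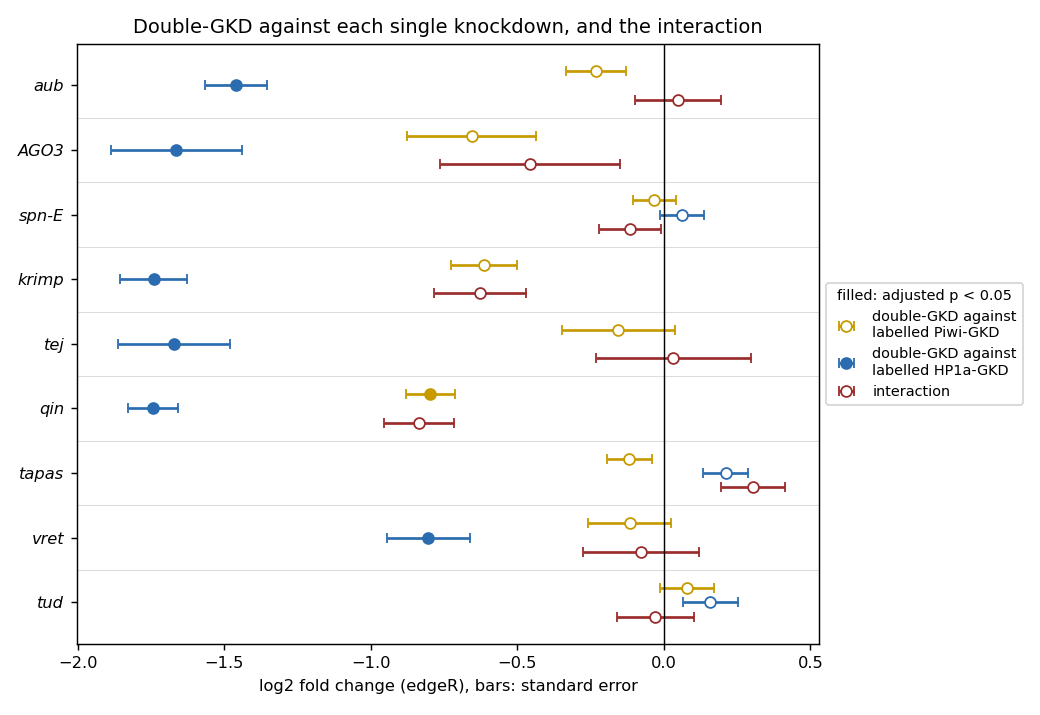
Log2 fold change of the members in double-GKD against the libraries labelled Piwi-GKD and against those labelled HP1a-GKD, and the interaction, with SE bars and filled symbols for an adjusted p under 0.05 in edgeR. Against the libraries labelled Piwi-GKD the single filled symbol is that of qin (-0.80), and against those labelled HP1a-GKD 6 symbols are filled, from -1.74 to -0.80.

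The transcripts of cell type markers moved with the same groups. In bulk RNA, fewer cells of a type and less RNA per cell cannot be told apart. The 10 germline markers summed to 560 and 567 TPM in double-GKD, 545 and 494 TPM in the libraries labelled Piwi-GKD and 2064 and 2056 TPM in those labelled HP1a-GKD, against 2293 and 2262 TPM in Ctrl. Of these markers 9 were lower in double-GKD than in Ctrl and 1 was higher, with a median log2 fold change of -1.75. The deepest fall was that of pgc (-4.32), a repressor of transcription in early germ cells, and the gene that rose was bgcn (0.68), a partner of Bam in early germline differentiation. Likewise 9 were lower and 1 was higher in the libraries labelled Piwi-GKD, with a median of -1.92, whereas none was called in those labelled HP1a-GKD (median -0.21). The groups in which members fell were therefore those in which germline markers fell, and the part of this in the members' values was not tested.

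Somatic markers were higher in the same groups. The summed level of 7 muscle markers was 8695 and 7020 TPM in double-GKD, 9635 and 7373 TPM in the libraries labelled Piwi-GKD and 2482 and 2723 TPM in those labelled HP1a-GKD, against 2321 and 2144 TPM in Ctrl, and all 7 were higher in double-GKD, up to 1.62 for Mhc (muscle myosin). Of 8 tested follicle and other ovarian somatic markers 6 were higher in double-GKD (largest for the adhesion protein gene Fas3, 2.19), as were 5 of 6 haemocyte markers (NimC1, a phagocytosis receptor gene, 1.96) and 4 of 4 fat body markers (Fbp1, 2.39). No marker of any list was at 0 in any library. The summed TPM of the 9 members was 462 and 432 in double-GKD, 564 and 509 for the replicates labelled Piwi-GKD, and 614 and 672 in those labelled HP1a-GKD, against 678 and 667 in Ctrl. Per TPM of germline markers this came to 0.824 and 0.763 in double-GKD, 1.03 and 1.03 for the replicates labelled Piwi-GKD, and 0.297 and 0.327 in those labelled HP1a-GKD, against 0.296 and 0.295 in Ctrl. These sums are carried by a few abundant genes, among them tud and spn-E for the members in double-GKD. Among the germline markers the most abundant in Ctrl were osk and bru1. The mean of osk was 174 TPM in double-GKD, against 1043 TPM in Ctrl, and that of bru1 was 239 TPM, against 623 TPM. Gene by gene, the median log2 fold change in double-GKD was nearly the same in both lists, -1.70 for the members and -1.75 for the germline markers. In the libraries labelled Piwi-GKD the medians lay apart, at -0.91 for the members and -1.92 for the germline markers. The median of the members was in both groups the value of qin. In the libraries labelled Piwi-GKD the other members ran from -1.70 (tej) to 0.19 (tud). The medians of the members and the germline markers were -0.04 and -0.21 in those labelled HP1a-GKD.

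Other genes of the pathway were examined by lists of fixed membership. Among 9 further nuage and Tudor-domain genes, 8 were lower and 1 was higher in double-GKD than in Ctrl, with a median log2 fold change of -0.93. The deepest fall was that of BoYb (-1.63), a germline relative of Yb, and the gene that rose was fs(1)Yb (1.04), which encodes the Yb protein of follicle cells. Of the same genes, 7 were lower and 1 was higher in the libraries labelled Piwi-GKD (median -0.85), and none was called in those labelled HP1a-GKD (median -0.02). The arginine methyltransferase gene csul and its cofactor gene vls, whose products modify Aub and AGO3 so that Tudor domains bind them, were both lower in double-GKD. The fall of csul was 1.95-fold (log2 fold change -0.96, SE 0.08, adjusted p = 8.12e-05 in edgeR), and the log2 fold change of vls was -0.93 (SE 0.09, adjusted p = 0.000106). They were also lower in the libraries labelled Piwi-GKD, at -1.05 for csul and -1.04 for vls.

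The next lists hold genes grouped under phased piRNA processing, which continues from a ping-pong cut along the transcript, and genes that act in the nucleus. Of 6 genes grouped under phased processing, 4 were lower in double-GKD (zuc, mino, nbr and Hsp83) and 1 was higher (median -0.56). The deepest fall was that of zuc (-1.35), the nuclease that cuts precursors at the mitochondrial surface, and the riser was armi (0.52), a helicase that acts in germ cells and follicle cells. Of 12 genes of cluster transcription and nuclear silencing 7 were lower and none was higher (median -0.80), with Boot, a factor of the nuclear export of cluster transcripts, at -2.17. This list includes piwi, a target of the hairpins, which was among those lower. Of the genes on these lists, only piwi was called in the libraries labelled HP1a-GKD (log2 fold change -1.23, adjusted p = 0.000648 in edgeR). Beside a background of 28.1% lower in double-GKD, the lists held 8 of 9, 4 of 6 and 7 of 12 lower genes, and none was tested as a set.

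**Figure D4:**
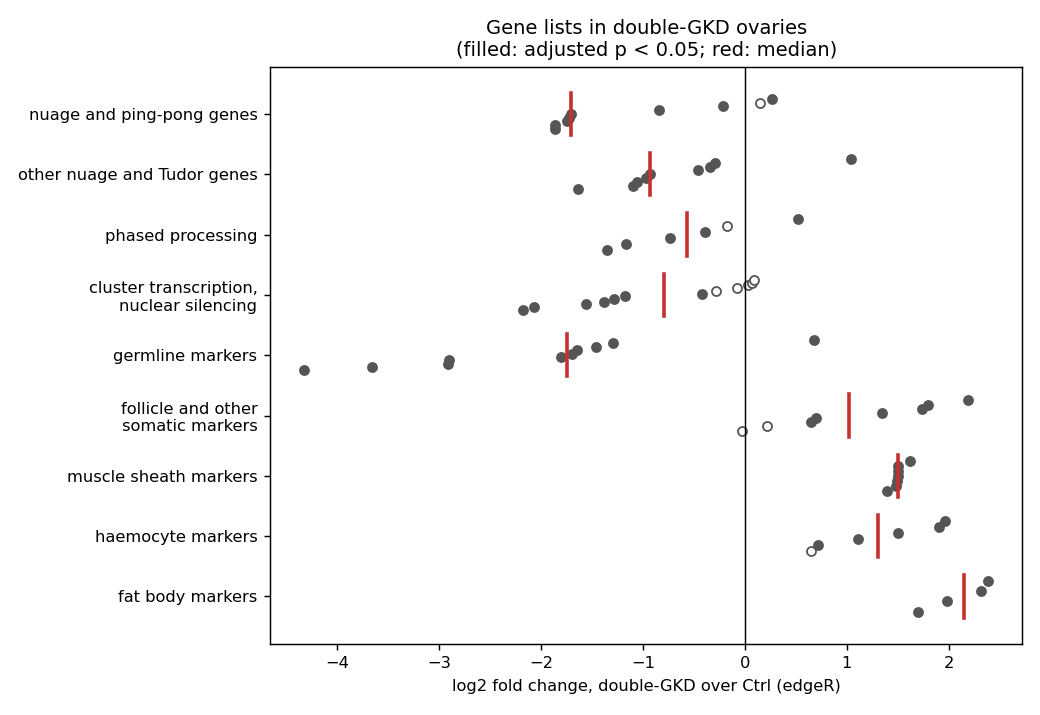
Log2 fold change in double-GKD against Ctrl (edgeR) for each tested gene of the members, the other piRNA gene lists and the cell type markers, with 1 point per gene, filled at an adjusted p under 0.05, and a red line at the median of each list. The medians are -1.70 for the members and -1.75 for germline markers, and above 1 for follicle and other ovarian somatic (1.02), haemocyte (1.31) and fat body (2.15) markers.

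The genes whose profile over the 8 libraries was most like the median profile of the members were Dhc36C, CG10936, Agpat1, CycJ and CG1801, at Euclidean distances of 0.533 to 0.581 on the log2 CPM scale, among 7606 genes with a mean of at least 5 CPM. The median profile itself stood at -1.74 and -1.58 in double-GKD, -0.86 and -0.96 for the replicates labelled Piwi-GKD, and -0.18 and 0.04 for those labelled HP1a-GKD, against -0.03 and 0.03 in Ctrl. For AGO3, the member with the largest fold change, the nearest genes were nanos, NaPi-III, CG31759, Naam and CG1801, at distances of 0.415 to 0.542. The promoter of nanos drives the GAL4 transgene of all 4 genotypes, and the nanos transcript itself had 20.2 and 24.0 TPM in double-GKD, 39.2 and 45.0 TPM in the libraries labelled Piwi-GKD and 50.6 and 54.1 TPM in those labelled HP1a-GKD, against 57.7 and 65.8 TPM in Ctrl. Its log2 fold change was -1.80 in double-GKD (SE 0.19, adjusted p = 0.000216 in edgeR), and it was also lower in the libraries labelled Piwi-GKD, at -0.95 (SE 0.19, adjusted p = 0.00384), both against Ctrl. Between double-GKD and the libraries labelled Piwi-GKD it was -0.85 (adjusted p = 0.13) and was not called.

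Several members share their locus with other genes, and it is not given in the sources used here whether counting used the strand, so that reads of a member and of a gene on the other strand may have been exchanged. In a Release 6 gene table, aub overlaps TTLL4A (log2 fold change in double-GKD -0.62), spn-E overlaps Pbp45 (-0.22), tapas overlaps MED8 (-0.26), vret overlaps CG6985 (0.44), and qin overlaps several genes including Tssk (-1.28), CG14301 (1.94) and CG31224 (0.09). TTLL4A had a mean of 61.2 TPM in double-GKD, against 74.8 TPM in Ctrl, and CG31224 17.4 TPM in double-GKD, against 13.1 TPM in Ctrl. No overlapping gene was listed for AGO3, krimp, tej and tud. The effective length of tapas also differed between groups, with a mean of 3379 bases in double-GKD, 3417 bases in the libraries labelled Piwi-GKD and 3199 bases in those labelled HP1a-GKD, against 3191 bases in Ctrl. A longer effective length lowers TPM for the same number of reads, and for tapas it moved with the same groups as the germline markers, while for spn-E, krimp, tej, qin, vret and tud it was the same in all libraries.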

How the data were processed

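RNA-seq of 8 ovary libraries (4 genotypes, 2 replicates) was analysed, and the DNA library was not used here. Per the labels and methods, the authors used STAR for aligning the single-end reads (genome release 5) and Salmon for quantifying genes, with versions not given in the sources used here. The authors deposited expected counts per gene, not normalized and fractional for 49.9 to 54.2% of genes. The deposited TPM values were scaled by the authors to a total of 1000000 per library. The deposited effective lengths, in bases, were used by the authors to compute TPM.

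Groups came from the sample labels. Counts were rounded and fitted over all 8 libraries with edgeR 4.0.16 under R 4.3.3 and limma 3.58.1, using TMM normalization, filterByExpr, glmQLFit and glmQLFTest, with 4 residual degrees of freedom and 4 groups. Benjamini-Hochberg adjustment covered 9346 genes, with calls at an adjusted p under 0.05. Replicates differed by more than sampling noise (chi-square over degrees of freedom 6.70 to 22.8). They are biological by the labels, but p-values measure only the spread between these libraries. Alternatives were DESeq2 1.42.0, RLE factors, library totals, no filter, a replicate block, a length offset, limma on log2(TPM + 1) and log2(TPM + 0.1), only the groups compared and leaving out each library. All members were named, with the knockdown targets, csul, vls, and the largest riser and faller of each list past the threshold. Other names were chosen by nearest profile or by overlap in the annotation. The members and lists were chosen with earlier results of these data known. Markers were unmatched for br, wupA and FASN1, squ was unmatched, and en was not tested for its low counts.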

Additional observations from a re-analysis of the deposited data

How the results depend on the processing

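Each member's fold change in 6 comparisons and the interaction was recomputed under 17 alternatives (16 for the interaction). In double-GKD against Ctrl, aub, AGO3, krimp, tej and qin were called lower under all 17, with log2 fold changes of -1.87 to -1.41, -2.11 to -1.52, -1.91 to -1.37, -2.06 to -1.50 and -1.76 to -1.33. The value of tapas in this comparison turned to 0.028 in limma on log2(TPM + 1) and to 0.028 on log2(TPM + 0.1). Library totals moved the median of all genes against Ctrl by 0.20 in double-GKD and 0.24 in the libraries labelled Piwi-GKD. Limma on TPM moved it by up to 0.31 and 0.38. Of the single-gene results, 999 were the same, 32 lost and 29 gained a call, and 2 turned.

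For double-GKD against Ctrl, the number of members called higher (1) was 2 with library totals, 2 in limma on log2(TPM + 1), 2 on log2(TPM + 0.1), 0 without the filter and 0 with only the groups compared. For the libraries labelled Piwi-GKD against Ctrl it was 2 with library totals and 2 in both limma fits, where the reported count is 0. In those labelled HP1a-GKD against Ctrl, 1 member was lower in DESeq2 (0 as reported). For double-GKD against the libraries labelled Piwi-GKD, the number lower (1) was 3 in DESeq2, 2 with library totals, 2 in limma on log2(TPM + 1) and 0 with only the groups compared. For double-GKD against those labelled HP1a-GKD, the number higher (0) was 1 with RLE factors and 3 with library totals. For the libraries labelled Piwi-GKD against those labelled HP1a-GKD, the number higher (1) was 3 with library totals and 2 in both limma fits. The median of all tested genes in this comparison was 0.23 with library totals, and 0.30 and 0.32 in the limma fits. In the interaction, 1 was lower in DESeq2 (0 as reported). For none of the counts under alternatives, including those below, was a share of all tested genes computed.

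With 1 library left out, the number higher was 0 to 1 in double-GKD against Ctrl and likewise 0 to 1 in the libraries labelled Piwi-GKD against those labelled HP1a-GKD, and the number lower was 0 to 1 in double-GKD against the libraries labelled Piwi-GKD. The lone library of a group is then assumed to vary like the others.

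The labels do not say whether the replicate numbers pair the samples. Correlations of same-numbered deviations over all tested genes were weak (-0.06 to 0.23) and do not settle it. With the replicate block, 1 member was lower in the libraries labelled HP1a-GKD against Ctrl, 3 in double-GKD against those labelled Piwi-GKD and 1 in the interaction, and 1 was higher in double-GKD against those labelled HP1a-GKD.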

Other observations

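Other genes tied to the pole plasm, where Tud and Aub are anchored in the oocyte, were listed apart from the members. Of 6 such genes, 5 were lower and 1 was higher in double-GKD than in Ctrl, with a median log2 fold change of -1.55. Of all tested genes, 28.1% were lower and 28.1% were higher. The list overlaps those above, since osk, nos, pgc and gcl are also germline markers and vls is also on the further nuage list. The transcript of osk, which nucleates the pole plasm, had 174 and 175 TPM in double-GKD, 163 and 154 TPM in the libraries labelled Piwi-GKD and 895 and 866 TPM in those labelled HP1a-GKD, against 1025 and 1059.7 TPM in Ctrl, and its log2 fold change in double-GKD was -2.91 (SE 0.12, adjusted p = 1.04e-05 in edgeR). The transcript of stau, which encodes an RNA-binding protein that carries osk mRNA, was the one that was higher (0.43, SE 0.14, adjusted p = 0.0332 in edgeR). None of the 6 was called in the libraries labelled HP1a-GKD (median -0.22).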
